A study of Mus musculus with 6 samples.

Results

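The genes described are 10 markers of epithelial and mesenchymal cell structure in a table of 27151 gene IDs. They were chosen by name as a family, with the FPKM differences between the groups already known, so their differences are given as a description. They are the simple epithelial keratins Krt8, Krt18, Krt19 and Krt7, the adhesion genes Epcam, Cdh1 and Cdh2, the gap junction gene Gja1, the intermediate filament gene Vim and the tight junction scaffold gene Tjp1. All 10 had a row, and 8 of them passed the filter on low values, a mean of at least 1 FPKM over the 6 libraries, as did 12181 genes in all. FPKM is the number of fragments of a gene scaled to the length of its exons and to the size of the library. RNA was sequenced from cultured granulosa cells of mouse ovary, obtained by puncturing follicles. Both groups had 24 h of culture in serum and 12 h without it. A further 24 h followed with no agonist (control, 3 libraries) or with GSK4112 (3 libraries), an agonist of the nuclear receptor NR1D1. The medium of both groups was changed every 12 h. The labels name no strain, age or genotype, and the design text speaks of treatment in vivo where the protocol describes culture. Separate animals or cultures are not mentioned either, and the p-values therefore reflect the spread among these libraries alone, possibly a technical one.

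Keratins 8 and 18 are partners. A type II keratin (KRT8, KRT7) pairs with a type I keratin (KRT18, KRT19) to build the intermediate filaments of simple epithelia, while vimentin builds those of mesenchymal cells. Granulosa cells are a follicular epithelium with mixed features, which is known to hold N-cadherin (Cdh2) at its cell contacts and to be coupled through connexin 43 (Gja1) channels.

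Library totals recovered from the FPKM steps were 16559257 to 18158273 fragments. Of 18 granulosa markers measured, 15 were at 1 FPKM or more in every library, whereas aromatase (Cyp19a1) stayed between 0.0131 and 0.165. The most abundant was Hsd3b1, a steroid-making enzyme (982 to 2928 FPKM). No endothelial marker of 9 and no oocyte marker of 10 reached 1 FPKM in every library. By the same measure 6 of 15 theca and stroma markers, 2 of 9 immune markers and 1 of 12 ovarian surface epithelium markers did. The replicate 1 libraries of both groups stood apart. On the first principal component (49.4% of the variance) they lay at -38.6 (control) and -13.4 (GSK4112). Control replicates 2 and 3 lay at 1.05 and 2.29, and GSK4112 replicates 2 and 3 at 26.6 and 22.1. Within each number the GSK4112 library lay above its control, so this component held both differences. Deviations from the group means correlated within numbers 1, 2 and 3 (0.665, 0.326 and 0.213 across genes). The replicate number was therefore also fitted as a block, and its value is given where it changes a call. Replicates 2 and 3 correlated more across the numbers (0.53 and 0.357), so the data do not tell which of these belong together. The calls with the block rest on this uncertain pairing.

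Within the 10 genes, the 2 abundant keratins were lower and Epcam was higher with GSK4112, by about 3-fold and about 2.3-fold in the group means, while Vim, Gja1 and Tjp1 had nearly the same means in both groups. In limma without a block none of the 8 genes tested was called at an adjusted p under 0.05, against 1.03% of all genes tested (0.41% higher and 0.624% lower). At an unadjusted p under 0.05 there were 3 of the 8, Krt8, Krt18 and Epcam, and 2065 of all genes, and limma-voom on the recovered fragments called none of the 8. For Krt8, Krt18 and Epcam limma-voom took rounded values at the GENCODE exon lengths, which gave no whole fragments. With the replicate block 3 were called, Krt8 and Krt18 lower and Epcam higher, against 6.89% of all genes tested (3.07% higher and 3.82% lower). Without both replicate 1 libraries the same 3 were called (7.03% of all genes, 3.23% higher and 3.8% lower). The genes were picked with earlier results of these data known, so these calls place them within the fit over all genes and are not independent evidence. The median log2 change of the 8 was -0.09, and that of all genes tested was 0.05.

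**Figure D1:**
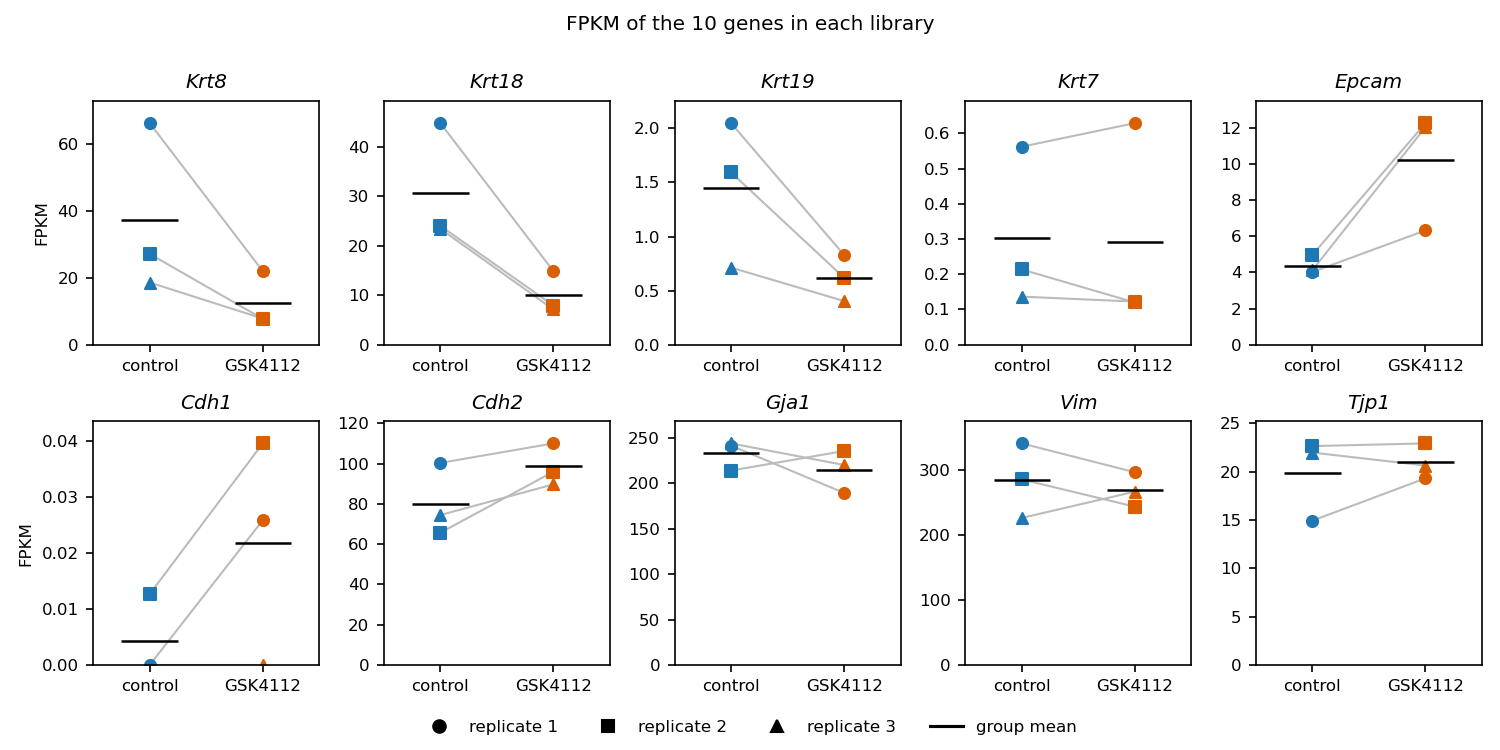
FPKM of each of the 10 genes (vertical axis, linear from 0, own scale per panel) in the 3 control and 3 GSK4112 libraries, with bars at the group means and grey lines joining libraries of the same replicate number. The lines of Krt8 and Krt18 all go down, those of Epcam all go up, and Cdh1 stays below 0.04 FPKM.

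Krt8 lies on the minus strand of chromosome 15 (GRCm38, 101996698 to 102004482) and Krt18 on its plus strand (102028180 to 102032027), 23697 bases apart. The pair is divergent, with transcription running away from the space between them. Their promoters are shown because the transcripts of both genes were lower in every same-numbered pair. From RefSeq (GRCm38.p6), 7 of the 10 genes had a sequence of the 250 bases before the start. Only the part before the GENCODE start of the gene is printed, 5′ to 3′ on the strand of the gene, for Krt8 (chr15:102004483-102004592, minus strand) and Krt18 (chr15:102027966-102028179, plus strand). Capitals mark AGGTCA, the half-site that many nuclear receptors bind, and CAGGTG, an E-box of SNAI and ZEB repressors, each searched on both strands.
Krt8: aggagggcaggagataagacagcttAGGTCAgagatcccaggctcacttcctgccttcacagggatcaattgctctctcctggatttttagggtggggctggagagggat
Krt18: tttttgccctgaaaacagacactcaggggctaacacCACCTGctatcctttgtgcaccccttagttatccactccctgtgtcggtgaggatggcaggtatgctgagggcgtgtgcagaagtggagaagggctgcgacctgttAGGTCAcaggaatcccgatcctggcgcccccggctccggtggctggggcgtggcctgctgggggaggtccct
The half-site began 225 bases before the RefSeq start of Krt8 and 108 bases before that of Krt18. It was in 2 of the 7 sequences, these 2, and in 14.0% of 32851 mouse promoters of the same length. The E-box was in 4 of the 7 (Krt8, Krt18, Krt7 and Epcam) and in 17.2% of all. That of Krt8 began 111 bases before its RefSeq start, outside the stretch printed and after the GENCODE start. The whole sequences of Krt7, Vim and Tjp1 also lay after the GENCODE starts of those genes. Such a match describes the letters and shows no binding.

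Krt8 was at 66.2, 27.1 and 18.6 FPKM in control replicates 1, 2 and 3 and at 21.99, 7.73 and 7.81 in GSK4112 replicates 1, 2 and 3. The replicate 1 library was the highest of each group, and GSK4112 replicate 1 lay above control replicate 3, so the groups overlapped. The means were 37.3 ± 25.4 and 12.5 ± 8.21 (SD, n = 3 each), and the log2 difference was -1.46 ± 0.548 (SE). Its adjusted p was 0.249 in limma without a block and 0.0038 with it. Within the pairs the control value was 3.01, 3.51 and 2.38 times the GSK4112 value.

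For its partner Krt18 the values were 44.8, 24.0 and 23.4 FPKM in control and 14.8, 7.89 and 7.11 with GSK4112. Every GSK4112 value lay below every control value, as in 7.9% of all genes tested. The means were 30.7 ± 12.2 and 9.94 ± 4.25 (SD, n = 3 each), and the log2 difference was -1.54 ± 0.335 (SE). Its adjusted p in limma was 0.0934 without a block and 0.0018 with it. The control value was 3.02, 3.04 and 3.29 times the GSK4112 value within the pairs, a narrower range than for Krt8. A log2 difference below -1 in all 3 pairs was found for both keratins and for 0.468% of all genes tested. As the genes were chosen with their differences known and the pairing comes from the data, this is a description.

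The balance of the 2 partners varied more between libraries than between groups. The FPKM ratio of Krt18 to Krt8 was 0.676, 0.885 and 1.26 in control and 0.674, 1.02 and 0.91 with GSK4112. The log2 ratio, computed with 1 added to each FPKM, differed by -0.07 between the groups (exact two-sided permutation p = 1, where 3 against 3 cannot give less than 0.1). Both replicate 1 libraries held less Krt18 per Krt8 than the other 4 did.

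The exon lengths of GENCODE gave no whole fragments for Krt8 and Krt18. The nearest lengths that did, 1805 and 1400 bases, gave 558 to 2171 fragments of Krt8 per control library and 231 to 671 per GSK4112 library, and 545 to 1138 and 173 to 351 of Krt18. The processed pseudogene Krt8-ps matches 48.1% of the longest Krt8 transcript at up to 98.6% identity, and it was at 0 to 0.291 FPKM. No transcript of another gene matched Krt18 at 95% identity or more over 100 bases. A lincRNA (Gm36026) shares 101 exon bases with Krt8 on the other strand. It was not used here, and its reads could not be told apart without a stated strand setting.

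Genes around the pair were not called. Within 100000 bases, Eif4b, a translation initiation factor, was at 117 to 143 FPKM in all 6 libraries (adjusted p = 0.765 in limma, 0.704 when blocked). Tns2, a tensin of focal adhesions (1.6 to 3.62 FPKM; adjusted p = 0.301 and 0.139), and Spryd3 (9.34 to 13.3; 0.102 and 0.0547) were not called either. The keratin genes Krt4, Krt78 and Krt79 on the other side stayed below 0.342 FPKM.

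Krt19, a type I keratin without a tail domain, was scarce. It was at 2.05, 1.59 and 0.713 FPKM in control and at 0.829, 0.619 and 0.403 with GSK4112, from 13 to 69 fragments per library. It was lower in each pair, but GSK4112 replicate 1 lay above control replicate 3. The log2 difference was -0.57 ± 0.248 (SE; adjusted p = 0.31 in limma, 0.0841 with the block). At this low level the pseudocount sets the size: the difference was -1.05 with 0.1 added in place of 1 (adjusted p = 0.328) and -1.16 in limma-voom on recovered fragments (0.301).

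Krt7, a type II keratin of ducts and mesothelium, was below the filter. Its values were 0.562, 0.214 and 0.136 FPKM in control and 0.629, 0.12 and 0.122 with GSK4112. Both replicate 1 libraries were high, with 72 and 75 fragments, and the other 4 held 14 to 26. The exon length of Krt7 (7049 bases in GENCODE) lowers its FPKM against a shorter transcript, so its place in any order or sum by FPKM depends on that length. With Krt7 counted at that length, Krt8 and Krt18 together held 91.4 to 94.3% of the summed FPKM of the 18 keratin genes measured in control and 82.0 to 90.4% with GSK4112. The summed FPKM of the remaining 16 was 2.93 to 6.72 in control and 2.97 to 3.93 with GSK4112.

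Epcam, which encodes an adhesion protein of epithelial cells that also marks many progenitors, lies on chromosome 17 (GRCm38, 87635979 to 87651129, plus strand). It was at 4.02, 4.97 and 4.12 FPKM in control and 6.32, 12.3 and 12.0 with GSK4112. Every GSK4112 value lay above every control value, as in 15.7% of all genes tested, and replicate 1 was the lowest of the GSK4112 group. The means were 4.37 ± 0.52 and 10.2 ± 3.37 (SD, n = 3 each), and the log2 difference was 1.01 ± 0.238 (SE). Its adjusted p in limma was 0.108 without a block and 0.021 with it. Within the pairs the GSK4112 value was 1.57, 2.47 and 2.92 times control.

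The 250 bases before the Epcam start (chr17:87635729-87635978, plus strand) are printed for comparison with the keratins, with the same capitals.
Epcam: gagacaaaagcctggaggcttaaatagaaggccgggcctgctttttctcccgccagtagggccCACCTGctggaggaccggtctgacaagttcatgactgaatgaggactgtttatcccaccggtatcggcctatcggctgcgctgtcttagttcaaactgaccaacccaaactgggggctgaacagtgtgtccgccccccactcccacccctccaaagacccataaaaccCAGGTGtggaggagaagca
It held the E-box on both strands, beginning 187 and 19 bases before the start, and no AGGTCA.

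**Figure D2:**
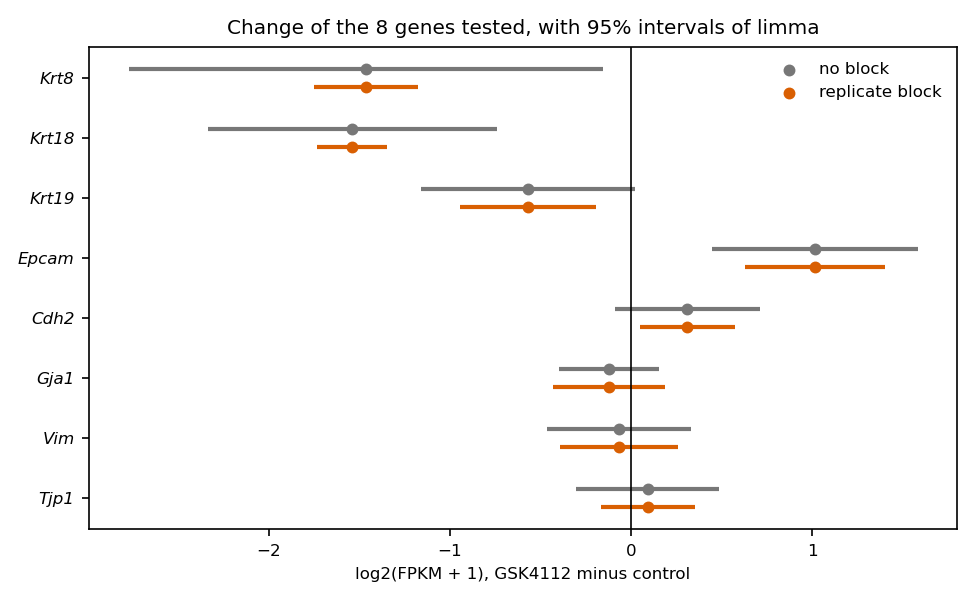
Difference in log2(FPKM + 1), GSK4112 minus control (horizontal axis), for the 8 genes tested, with 95% intervals of limma without a block (grey) and with the replicate block (orange). The intervals of Krt8 and Krt18 lie below 0 and that of Epcam above 0 in both fits, before adjustment over all genes, and those of Gja1, Vim and Tjp1 include 0. Those of Krt19 and Cdh2 include 0 without the block and exclude it with the block, where neither gene was called.

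The cadherins were almost all N-cadherin. Cdh1, which encodes E-cadherin, the cadherin that goes with keratins in most simple epithelia, had 0, 1 and 0 fragments in the control libraries and 2, 3 and 0 with GSK4112. Each library's limit for a count of 3 fragments was 0.0361 to 0.0396 FPKM, so no fold is given. That limit covers counting error only. Cdh2 was at 100.4, 65.7 and 74.5 FPKM in control and 110.05, 96.0 and 89.7 with GSK4112. Its value was higher with GSK4112 in each pair, but the groups overlapped. The log2 difference was 0.31 (95% interval -0.09 to 0.71, or 0.05 to 0.58 with the block). Cdh2 was not called (adjusted p = 0.402 in limma, 0.14 with the block). Cdh2 held 92.2 to 94.9% of the summed FPKM of 17 cadherin genes measured in the 6 libraries.

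Gja1, the main connexin of granulosa cells, was at 242, 214 and 244 FPKM in control and at 189.5, 236 and 220.3 with GSK4112. The groups overlapped, and the log2 difference was -0.12 (95% interval -0.40 to 0.16; adjusted p = 0.639 in limma). Gja1 held 98.3 to 99.0% of the summed FPKM of 16 connexin genes measured. Gja4 (connexin 37), which is known for the contact with the oocyte, was at 0.0702 to 0.653 FPKM.

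Vimentin was the most abundant of the 10 transcripts per length. Vim was at 341, 286 and 227 FPKM in control and 297, 244 and 267 with GSK4112. The log2 difference of -0.06 (95% interval -0.46 to 0.33; adjusted p = 0.876 in limma) had the opposite sign in pair 3 and without both replicate 1 libraries (0.0038). Tjp1, which encodes the scaffold ZO-1, was at 14.9, 22.6 and 21.97 FPKM in control and 19.3, 22.9 and 20.6 with GSK4112. Its lowest values were those of the replicate 1 libraries, and its log2 difference was 0.09 (95% interval -0.30 to 0.49; adjusted p = 0.808 in limma), or -0.04 without those libraries.

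By mean FPKM over the 6 libraries the order was Vim (277), Gja1 (224), Cdh2 (89.4), Krt8 (24.9), Tjp1 (20.4), Krt18 (20.3), Epcam (7.29), Krt19 (1.03), Krt7 (0.297, with the length given above) and Cdh1 (0.013). Vim was above Gja1 in 5 of the 6 libraries, and Krt8 above Tjp1 in 3 of 6. The order of Tjp1 and Krt18 depended on the group, as Krt18 was the higher in all 3 control libraries and Tjp1 in all 3 GSK4112 libraries. Epcam was below Krt18 in all 3 control libraries and above it in 2 of 3 GSK4112 libraries. Among the 12181 genes tested, Krt8 ranked 726 to 3021 in control and 2601 to 6315 with GSK4112, Krt18 ranked 1154 to 2328 and 3903 to 6589, and Epcam 7757 to 8624 and 4562 to 7177.

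Against the mesenchymal filament gene Vim, Krt8 was lower with GSK4112. The FPKM ratio of Krt8 to Vim was 0.194, 0.0949 and 0.082 in control and 0.0741, 0.0317 and 0.0292 with GSK4112. The groups did not overlap, by a narrow margin between control replicate 3 and GSK4112 replicate 1. In these libraries Krt8 alone lay the other way (18.6 and 21.99 FPKM), and Vim was at 227 and 297. The difference of the log2 ratio (1 added to each FPKM) was -1.40 (exact two-sided permutation p = 0.1, the smallest that 3 against 3 allows).

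The replicate 1 libraries were high in Krt8, Krt18 and Krt7, and other gene groups were high with them. For 12 mitosis genes the sum over the list was 186, 46.1 and 52.9 FPKM in control and 138, 28.6 and 24.3 with GSK4112, with Ccnb2 the most abundant. None of the 12 was called without the block, and 5 were called lower with it, against 3.82% of all genes tested. Markers of the ovarian surface epithelium, the single layer around the ovary, include Krt7 and Krt19. The 9 others without Ildr2 (15.7 to 25.9 FPKM) summed to 10.9, 5.88 and 4.08 in control and 9.13, 5.01 and 3.29 with GSK4112, and of these the mesothelial mucin gene Muc16 stayed at 0.0731 FPKM or below. Theca and stroma markers came to 287 FPKM in control replicate 1, 185 in GSK4112 replicate 1 and 71.8 to 108 elsewhere, mostly from Acta2 (44.5 to 234). Immune markers, led by the lysozyme gene Lyz2, summed to 44.3, 15.5 and 9.04 in control and 40.5, 17.6 and 20.4 with GSK4112. Oocyte markers, led by Padi6, summed to 5.68 in control replicate 1 and 0.109 to 2.41 in the rest. Endothelial markers, led by Esam, came to 0.983 to 1.73. Granulosa marker sums were lower with GSK4112 within each number too, at 4128, 6693 and 6369 FPKM in control and 3493, 5267 and 5766 with GSK4112. The groups overlapped. Without Hsd3b1 the sums were 3145 to 3765 in control and 2312 to 3098 with GSK4112. Of 16 granulosa markers tested, 14 were below 0, with a median log2 change of -0.21 beside 0.05 over all genes tested. The 2 called lower were the estradiol-making enzyme gene Hsd17b1 and the follistatin gene Fst (adjusted p = 0.0187 each in limma). Over all genes tested 0.624% were called lower without the block. With the block 4 were called lower, these 2 and the inhibin subunit genes Inhba and Inhbb, and 1 higher, the KIT ligand gene Kitl. Over all genes tested the block gave 3.82% lower and 3.07% higher. The part of these cells, of proliferation or of the granulosa markers in the keratin values was not tested. The log2 differences of Krt8, Krt18 and Epcam without both replicate 1 libraries were -1.42, -1.54 and 1.25. In bulk RNA, fewer cells of a type and less RNA per cell cannot be told apart.

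**Figure D3:**
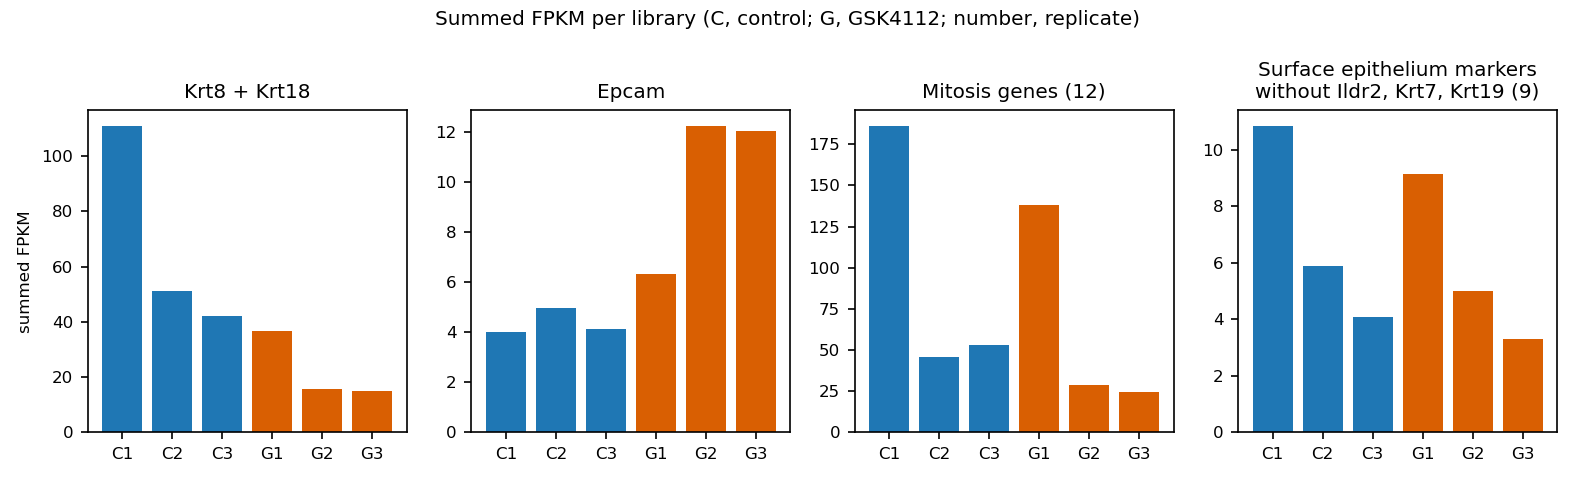
Summed FPKM per library (vertical axes from 0) of Krt8 and Krt18, of Epcam, of 12 mitosis genes and of 9 surface epithelium markers, with control in blue and GSK4112 in orange. Replicate 1 is the highest library of its group in all panels but that of Epcam, where it is the lowest; within each number the keratin sum is lower with GSK4112.

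Among 7934 genes with a mean of at least 5 FPKM, those whose pattern over the 6 libraries was nearest to that of Krt18 were Pcsk5, a proprotein convertase, Egr1, an immediate early transcription factor, and Car14, a carbonic anhydrase. Their root mean square differences from Krt18 in centred log2(FPKM + 1) were 0.0528, 0.0989 and 0.146. Krt8 was the 25th nearest (0.306). Nearest to Krt8 were Cenpm of the centromere (0.203), the nucleosome-binding gene Hmgn5 (0.203) and the pyruvate carboxylase gene Pcx (0.228), with Krt18 13th. The genes nearest to Epcam were Nbl1, an antagonist of bone morphogenetic proteins (0.0679), the interferon receptor gene Ifnar1 (0.109) and Gm15543 (0.116). For Krt19 they were Tmem141 (0.106), 2810025M15Rik (0.126) and Gm11560 (0.135).

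Genes of the junctions and filaments to which the 10 belong were read from 9 lists. Limma without a block called 1 gene of all 9 lists, as did limma-voom. Over all genes tested limma called 1.03% without the block and 6.89% with it (3.07% higher and 3.82% lower). Without both replicate 1 libraries it called 7.03%. At an unadjusted p under 0.05 there were 8 of 17 genes tested in the adherens junction list and 1 of 6 in the desmosome list. The tight junction list had 2 of 20, the epithelial surface list 4 of 7 and the other 5 lists 0. Over all genes it was 2065 of 12181. Of the 14 other keratins measured, only Krt10 of the epidermis passed the filter (0.881 to 2.09 FPKM; adjusted p = 0.63 in limma), and 13 did not. Of 19 other intermediate filament genes and linkers 9 were tested and none was called, including the lamins Lmna (37.0 to 61.7 FPKM; adjusted p = 0.651) and Lmnb1 (28.5 to 47.6; 0.414). With the block 1 was called lower (Lmnb2, 9.58 ± 3.09 and 6.76 ± 1.94 FPKM, adjusted p = 0.418, or 0.0427 when blocked). The median log2 change of the 9 was 0.11.

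Desmosomes anchor keratin filaments at the membrane. Of their 9 genes measured 6 were tested and 1 was called lower, as were 0.624% of all genes tested. It was the only gene of all the lists called without a block. Pkp2, which encodes the plaque protein plakophilin 2, was at 30.2, 33.7 and 28.9 FPKM in control and 20.4, 16.6 and 16.4 with GSK4112. The groups did not overlap, and the log2 change was -0.77 ± 0.111 (SE; adjusted p = 0.0421 in limma, 0.0148 with the block). That call ended without a filter (0.099), without the variance trend (0.0504) and without any 1 of control replicates 1, 2 and 3 and GSK4112 replicates 2 and 3 (0.058 to 0.214). With the block 1 further gene was called lower, Perp, a desmosomal membrane protein and p53 target (4.99 ± 2.68 and 2.52 ± 1.91 FPKM; adjusted p = 0.399, or 0.0148 when blocked). Desmoplakin (Dsp, 6.996 to 11.3 FPKM; adjusted p = 0.64) and Pkp4 (20.4 ± 3.82 and 24.4 ± 3.14; 0.454) were not called. The median over the 6 was -0.21, from -0.44 without GSK4112 replicate 1 to -0.0554 without GSK4112 replicate 2, and it was 0.16 over the 3 genes with a mean of at least 5 FPKM.

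In the adherens junction list 17 of 20 genes measured were tested and none was called, with a median of 0.05. That median was below 0 with a mean of at least 5 FPKM (-0.12, 13 genes), without both replicate 1 libraries (-0.0363), with sample weights (-0.0113) and with median-of-ratios scaling (-0.0014). The catenins Ctnnb1 (150 ± 24.3 and 189.9 ± 25.3 FPKM; adjusted p = 0.339 in limma) and Ctnna1 (142 ± 1.42 and 149.8 ± 7.79; 0.683) were the most abundant. With the block 5 were called lower: Ctnna2, the LIM protein gene Ajuba and the 3 nectin genes Nectin1, Nectin2 and Nectin3, whose products pair cells beside the cadherins. Nectin2 was at 57.4 ± 13.4 and 38.4 ± 9.92 (adjusted p = 0.261, or 0.0237 when blocked), and Nectin1 at 12.9 ± 2.11 and 7.95 ± 3.02 (0.225 and 0.0257). Without both replicate 1 libraries 3 were called lower and 1 higher.

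Of 35 tight junction genes measured 20 were tested and none was called, with 16 of 20 below 0 and a median of -0.19. F11r, the junctional adhesion molecule JAM-A, was at 289 ± 47.6 and 250.4 ± 7.88 FPKM (adjusted p = 0.497 in limma), and Amotl2 at 102 ± 27.1 and 75.4 ± 27.1 (0.454, or 0.045 when blocked). The other call with the block was Cgnl1, paracingulin (59.2 ± 3.29 and 31.8 ± 10.9; 0.108 and 0.0256), also lower. Occludin (Ocln) was below the filter (0.368 to 0.827 FPKM).

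Of the other cadherins 2 of 15 measured were tested (Cdh13 and Cdh24), and of the other connexins and pannexins 2 of 18 (Gjc1 and Panx1). None of these 4 was called, with or without the block, and their FPKM ranged from 0.958 (Cdh13) to 3.93 (Panx1). Among 22 epithelial surface and splicing genes 7 were tested and none was called, with a median of -0.32. Without control replicate 1 the median was -0.0208 and 1 gene was called higher, and without a filter it was -0.0106 over 22 genes. Cd24a, a surface glycoprotein, was at 72.4, 49.1 and 48.8 FPKM in control and 78.7, 89.7 and 87.7 with GSK4112 (adjusted p = 0.144, 0.0776 with the block and 0.006 without both replicate 1 libraries, in limma). Spint2, a protease inhibitor, was at 20.1 ± 1.81 and 16.0 ± 1.23 (adjusted p = 0.183). With the block 1 was called lower, the epithelial splicing regulator Esrp2 (6.88 ± 0.953 and 4.61 ± 0.411; 0.121 and 0.0424).

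None of the 6 genes tested among 15 measured of the epithelial-to-mesenchymal list was called, with or without the block, and the median was -0.05. Sparc, a matrix glycoprotein, was at 532 ± 35.03 and 513 ± 36.7 FPKM, and Fn1, fibronectin, at 46.9 and 22.8 in the replicate 1 libraries and 6.45 to 8.39 in the other 4. The repressors of Cdh1 in this list were low or not called: Zeb2 was at 9.91 ± 2.02 and 12.2 ± 1.26 (adjusted p = 0.403), Zeb1 at 2.67 ± 0.107 and 2.51 ± 0.537 (0.815), and Snai1 and Snai2 were below the filter.

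**Figure D4:**
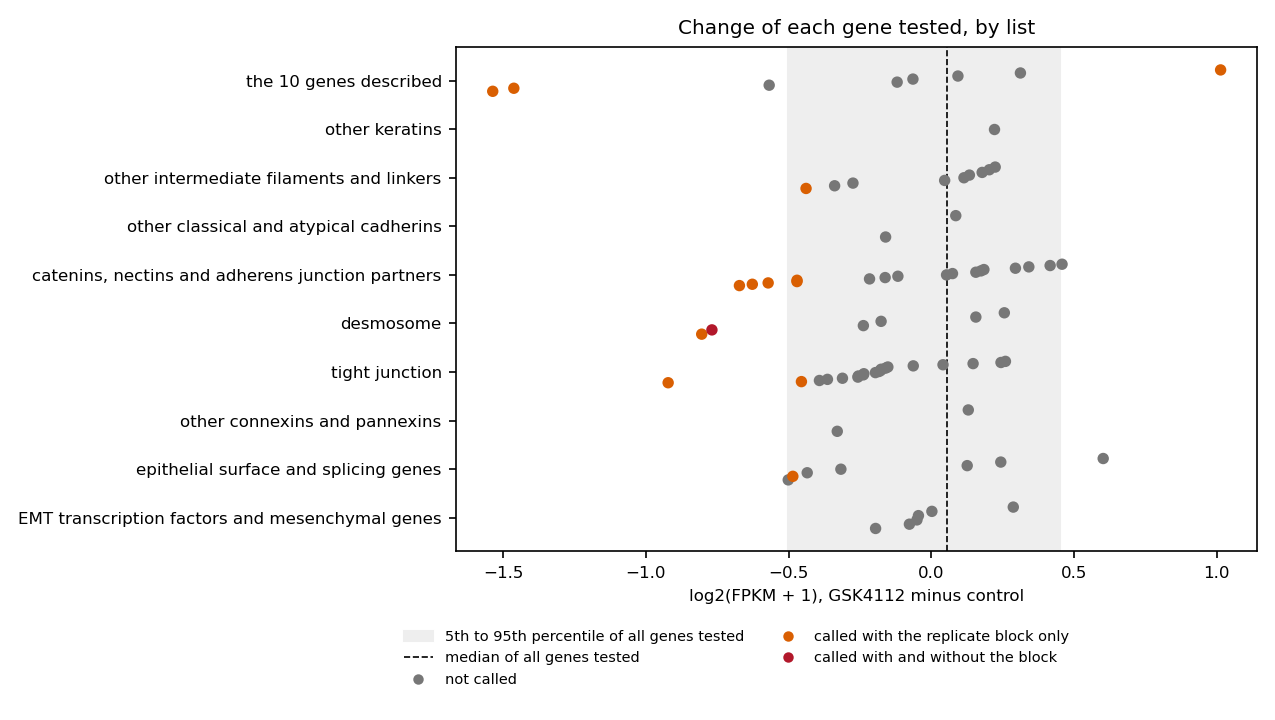
Difference in log2(FPKM + 1), GSK4112 minus control (horizontal axis), of each gene tested, 1 point per gene and 1 row per list, over the 5th to 95th percentile of all genes tested (grey band, -0.50 to 0.45) and their median (dashed). Krt18, Krt8 and Epcam lie farthest out; the red point is Pkp2, and orange points are genes called with the replicate block only.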

How the data were processed

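Per the labels, 6 libraries of mouse granulosa cells were sequenced. The authors deposited 1 table of FPKM values, with build GRCm38 per the submitters' processing notes; the aligner, counter, annotation and strandedness were not given in the sources used here. The 6 columns were matched to samples by name. Symbols, coordinates and exon lengths came from GENCODE M21 (GRCm38), which held 27098 of 27151 IDs. FPKM times exon length gave library totals, with 90.4 to 90.7% of values whole within 0.01 fragments. Testing covered the 12181 genes whose FPKM averaged 1 or more and used limma 3.58.1 (R 4.3.3) on log2(FPKM + 1) with a variance trend, 2-sided, Benjamini-Hochberg adjusted p under 0.05 over all of them; this scale understates changes of low genes. Near-identical transcripts were searched with blastn 2.17.0. The fit without a block was tested on simulated data with independent noise in each library, which does not cover the replicate block.

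The members, lists and tests were chosen with earlier results of these data known. Genes named are the members, up to 3 called rises and falls of each list, its 2 most abundant genes where fewer than 2 were called, the most abundant marker per cell type and the 3 genes nearest to each varying member. Any further gene, such as those called only with the block, was picked with its values in view.

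The replicate numbers occur in both groups. Deviations from the group means had correlations of 0.665, 0.326 and 0.213 across genes within numbers 1, 2 and 3, all above 0.1, so the replicate block was fitted as a paired alternative. The pairing comes from the data, not from a label. Replicates 2 and 3 correlated more across the numbers (0.53 and 0.357) than within them, so the data do not tell which of these belong together. Also tried were a pseudocount of 0.1 or 0.5, a mean FPKM of 5 or no filter, 3 scalings, 3 variance models, limma-voom on recovered fragments, an adjusted p under 0.01 and libraries left out. Combining the block with quantile normalization or with limma-voom was added after seeing the data. The dose is left out, since the labels give it in a unit that is no concentration.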

Additional observations from a re-analysis of the deposited data

How the results depend on the processing

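Over all genes, 126 were called; 26 without a filter, 830 with sample weights, 839 with the replicate block, 856 without both replicate 1 libraries, 769 with the block and quantile normalization, 1402 with the block and limma-voom, and 6 at an adjusted p under 0.01. Leaving out 1 library gave 0 to 153 (8 without control replicate 2, and 0 without control replicate 3, GSK4112 replicate 2 or GSK4112 replicate 3, in limma, with 1843, 1224 and 1318 genes at an unadjusted p under 0.05). Splits into higher and lower were 50 and 76, 39 and 105 with median-of-ratios scaling, 470 and 360 with sample weights, 374 and 465 with the replicate block, and 285 and 484 with the block and quantile normalization.

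Of the members, 0 were called; 2 with sample weights (Krt18 and Epcam), 3 with the replicate block, 3 without both replicate 1 libraries, 3 with the block and quantile normalization, and 4, Krt19 too, with the block and limma-voom. Leaving out 1 library gave 0 to 1 (Epcam, without GSK4112 replicate 1). Krt8, Krt18, Krt19, Epcam, Cdh2 and Gja1 kept their direction in every alternative run, with log2 changes of -1.93 to -0.96 for Krt8, -1.84 to -1.24 for Krt18, 0.87 to 1.30 for Epcam, -1.20 to -0.39 for Krt19 and 0.18 to 0.48 for Cdh2. List medians near 0 also turned: intermediate filaments (-0.0037 without control replicate 2), other keratins (-0.0012 without a filter), connexins and pannexins (0.0144 without a filter), cadherins (2 settings, up to 0.0406 without control replicate 3) and the mesenchymal list (5 settings, up to 0.0420 without both replicate 1 libraries), as did those given in the report.

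The sign turned for 10 named genes and 1 ratio. None of them was called in the fit reported, but Acta2 was called higher without both replicate 1 libraries (0.61, adjusted p = 0.0355 in limma) and Ccnb2 lower with the block and limma-voom (-0.59, 0.0381). Leaving out 1 library, the log2 change ran from -0.22 to 0.0765 for Vim (above 0 without control replicate 1 or, at 0.0046, GSK4112 replicate 2), from -0.0896 for Tjp1 (without control replicate 1) upward to 0.20, from -0.42 to 0.14 for Cdh13, -0.0921 to 0.29 for Cdh24, -0.0962 to 0.0062 for Sparc, -0.66 to 0.68 for Fn1, -0.51 to 0.35 for Hsd3b1, -0.30 to 0.88 for Acta2, -0.19 to 1.17 for Lyz2 and -1.19 to 0.0799 for Ccnb2. Without both replicate 1 libraries Vim was at 0.0038, Tjp1 at -0.0351 and Fn1 at 0.21. With quantile normalization, with or without the block, Sparc was at 0.0379 and Hsd3b1 at 0.17, and Fn1 was at 0.0309 with sample weights. The difference in the log2 ratio of Krt18 to Krt8 ran from -0.28 to 0.15 with 1 library left out. The cause was not tested. Fragment counts limit Krt7, Krt19 and Cdh1.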

Other observations

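Some relatives of the 10 genes lay below the filter on low values and are given as values, chosen after they were seen. Krt20, a type I keratin of gut and urothelium, was at 1.49, 0.601 and 0.437 FPKM in control and 0.43, 0.094 and 0.0896 with GSK4112, so its groups did not overlap, by a narrow margin between control replicate 3 and GSK4112 replicate 1. Cdh3, P-cadherin, was at 2.78 FPKM in control replicate 1 and 1.11 in GSK4112 replicate 1, and at 0.331 to 0.535 in the other 4 libraries. Twist1, a transcription factor of mesenchyme, was at 0.744, 0.0712 and 0.148 FPKM in control and 0.799, 0.519 and 0.671 with GSK4112, with overlapping groups.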
